A study of Saccharomyces cerevisiae with 4 samples.

Results

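Aspartyl proteases of *Saccharomyces cerevisiae* were followed at the transcript level in cells that lack the cell wall mannoprotein gene *CCW12*. The group comprised the 6 yapsin genes *YPS1*, *MKC7*, *YPS3*, *YPS5*, *YPS6* and *YPS7* and the 2 related genes *BAR1* and *PEP4*. These 8 genes were taken by symbol from the probe annotation of the array, out of 5656 genes with a probe set of their own, and each of the 8 was represented by its brightest such probe set. The values are a description of transcript signals and not of protease activity.

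Yapsins are aspartic peptidases that cleave after basic residues and that in most cases are held at the plasma membrane or cell wall by a glycosylphosphatidylinositol (GPI) anchor. They were first noticed because *YPS1* and *MKC7* can take over pro-α-factor processing when the Kex2p protease is missing, and cells without yapsins are sensitive to cell wall stress. Bar1p is a secreted relative that MATa cells use to degrade α-factor, whereas Pep4p, proteinase A, resides in the vacuole and activates the precursors of other vacuolar hydrolases.

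The mutant strain MEY12A (*ccw12*Δ) is the haploid MATα strain SEY6210 with *CCW12* disrupted by *URA3*, and SEY6210 served as wild type. Both strains carry mutant alleles of *URA3*, *LEU2*, *HIS3*, *TRP1*, *LYS2* and *SUC2* and are *GAL*, and the mutant has a working *URA3* in place of *CCW12*. Cells were grown in YPD with adenine to early exponential phase, and each of 2 arrays per strain received labelled cRNA from a pool of 3 RNA preparations. A bulk signal of this kind does not separate fewer expressing cells from less RNA per cell. The mutant is 1 strain, so that what belongs to the deletion and what belongs to this isolate cannot be told apart.

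The signals of *CCW12* were 4260.3 and 3919.0 on the *ccw12*Δ arrays, against 24314 and 24118 on the wild-type arrays, and whether its probes lie in the disrupted part is not known here. *URA3* had 59.5 and 54.2 on the *ccw12*Δ arrays, against 3.9 and 6.7 on the wild-type arrays. The median signal was 141.2 and 144.4 on the *ccw12*Δ arrays and 122.4 and 117.9 on the wild-type arrays. The array of wild type replicate 1 stood apart in the ratio of 3' to 5' probe signals of control genes. For *ACT1* it was 2.99 there, beside 1.49 on both *ccw12*Δ arrays and 1.38 on wild type replicate 2. For *SPT15* it was 7.12, beside 3.05 and 3.69 on the *ccw12*Δ arrays and 2.87 on wild type replicate 2. For *SRB4* it was 9.82, beside 2.37 and 3.52 on the *ccw12*Δ arrays and 2.20 on wild type replicate 2. The description of wild type replicate 2 names the MATa strain SEY6211, although its title names SEY6210. Its signals were 2985.4 for *STE3*, the a-factor receptor gene of MATα cells, and 18.6 for *STE2*, the α-factor receptor gene of MATa cells. In *ccw12*Δ the genes of chromosomes II, IX and X were higher as a whole, with a median log2 ratio of 0.98 over 854 genes beside 0.10 over the 4260 others, so that a chromosome-centred value is given beside the results it touches. For this value each gene's deviation from its wild-type mean was taken on each array, and the median of these deviations over the chromosome was removed.

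The array signal is a linear value per probe set that the authors had scaled per array, and fold changes were taken on the log2 scale. A gene was tested when its mean log2 signal reached 5.07, a signal of 33.6, the 25th percentile of all probe sets that are not controls. This left 5114 genes, 6 of the 8 aspartyl protease genes among them, and *YPS5* and *BAR1* were too dim. In *ccw12*Δ, 2 of the 6 genes, *YPS3* and *YPS6*, were higher at an adjusted p under 0.05 from limma, a linear model that shares the replicate spread across genes, with p-values adjusted over all genes tested after Benjamini and Hochberg. None was lower, and 4 did not pass. Over all genes tested 2.7% were higher and 0.313% lower by the same criterion. On chromosomes II, IX and X 118 of 854 genes were higher and 3 lower, against 20 and 13 of the 4260 others. *YPS6* lies on chromosome IX and *YPS3* on chromosome XII. The fold rule asks for a mean ratio of at least 2-fold with all 4 mutant to wild-type ratios in 1 direction, and the same 2 genes met it, beside 10.4% of all genes that met it upwards and 2.05% downwards. The median log2 fold change was 0.35 over the 6 genes and 0.19 over all genes tested.

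**Figure D1:**
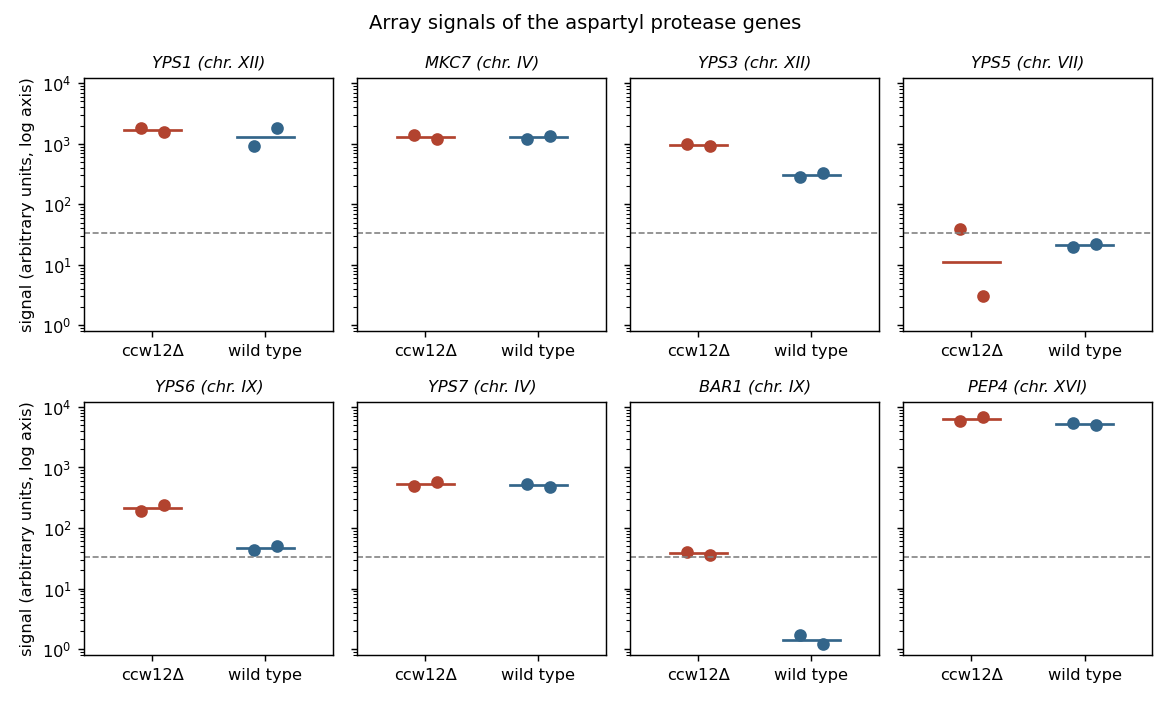
Signals of the 8 aspartyl protease genes on a log axis, with the ccw12Δ arrays (left) and the wild-type arrays (right) as points, the geometric mean of each strain as a bar and the level of 33.6 as a dashed line. The ccw12Δ signals of YPS3 and YPS6 lie above those of the wild type, and the wild-type signals of BAR1 lie far below the dashed line.

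*YPS3* (YLR121C) encodes a GPI-anchored yapsin and lies on chromosome XII beside *YPS1*. Its signals were 989.2 and 905.1 on the *ccw12*Δ arrays, against 280.5 and 323.2 on the wild-type arrays. The strains did not overlap, and the replicates of each strain differed by far less than the strains did. The means were 947 ± 59.5 in *ccw12*Δ and 302 ± 30.2 in the wild type (SD, n = 2 each), and the 4 mutant to wild-type ratios lay between 2.80 and 3.53. The log2 fold change was 1.65 (standard error, SE, 0.27, 95% interval 1.01 to 2.29, adjusted p = 0.0361 from limma, 2 arrays per strain). Only 5 of the 446 genes tested on chromosome XII had a higher value. With chromosome-centred arrays the log2 fold change was 1.53 (SE 0.24) and the unadjusted p from limma stayed at 0.000386, whereas the adjusted p became 0.0680. Of 17 alternative settings, those with an array left out among them, 9 called *YPS3*. With all 4 arrays kept, its adjusted p from limma ranged between 0.0143 with the replicate block and 0.123 in the fit of all probe sets. Without *ccw12*Δ replicate 1 it was 0.108 and without *ccw12*Δ replicate 2 it was 0.142, with log2 fold changes of 1.59 and 1.72. With an array left out, the lone array of its strain is assumed to vary like the pair of the other strain, which alone gives the spread between replicates that limma moderates across genes.

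*YPS1* (YLR120C), coding for the yapsin that gave the family its name, gave 1834.0 and 1571.2 on the *ccw12*Δ arrays, against 916.3 and 1798.5 on the wild-type arrays. Here the strains overlapped, because wild type replicate 2 was as high as the mutant arrays and wild type replicate 1 was the low sample. The log2 fold change was 0.40 (SE 0.36, 95% interval -0.43 to 1.24) and did not pass (adjusted p = 0.568 from limma). Only 11.3% of the genes tested differed more between the wild-type arrays than *YPS1*. The value therefore depended on the wild-type array used. Without wild type replicate 1 the log2 fold change was -0.083, and without wild type replicate 2 it was 0.89 (adjusted p = 0.00707 from limma, with the spread taken from the *ccw12*Δ pair alone, a setting that called 1487 of all genes tested). The part of the 3' to 5' ratio of wild type replicate 1 in this difference was not tested.

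The log2 fold change of *YPS3* exceeded that of its neighbour *YPS1* by 1.25. An exact permutation test of this difference over the 4 arrays gave p = 0.333 (two-sided), the smallest that 2 arrays against 2 allow. Around *YPS3* the 10 nearest protein-coding genes, 5 on either side, include 7 that were tested, *YPS1* among them. Their log2 fold changes lay between -0.18 and 0.84 with a median of 0.58, none of them passed, and none was as high as that of *YPS3*. The median is the value of *APC2*, with 53.0 and 34.1 on the *ccw12*Δ arrays, against 30.6 and 26.5 on the wild-type arrays. Both wild-type signals are under 33.6, so that *APC2* reached the filter level only through the *ccw12*Δ arrays.

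**Figure D2:**
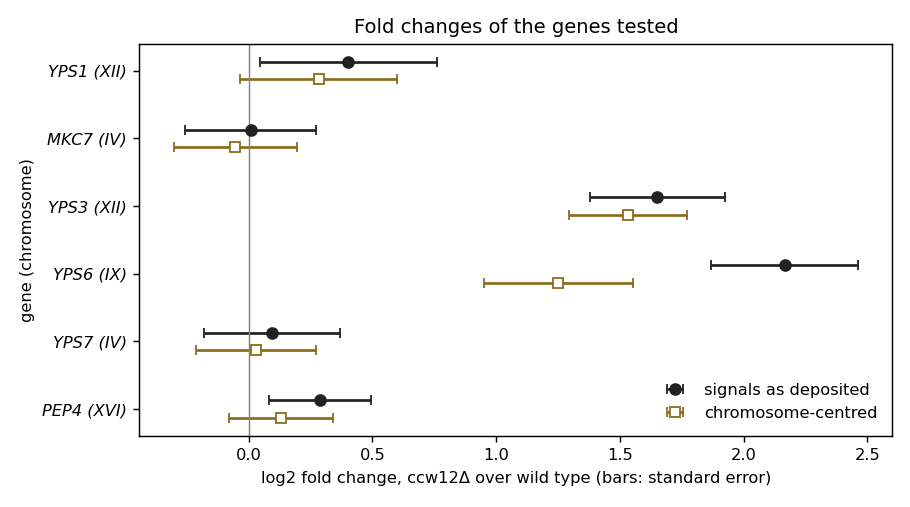
Log2 fold changes of ccw12Δ over wild type for the 6 genes tested, with standard errors from limma, from the signals as deposited (filled circles) and with chromosome-centred arrays (open squares). YPS6, on chromosome IX, has 2.17 as deposited and 1.25 with chromosome-centred arrays, whereas YPS3, on chromosome XII, has 1.65 and 1.53.

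*YPS6* (YIR039C) codes for a putative GPI-anchored aspartic protease and lies near the right end of chromosome IX, with 2 protein-coding genes beyond it. Its signals were 188.1 and 235.6 on the *ccw12*Δ arrays, against 44 and 50 on the wild-type arrays. Both mutant arrays were above both wild-type arrays, with means of 212 ± 33.6 in *ccw12*Δ and 47.0 ± 4.24 in the wild type (SD, n = 2 each) and ratios between 3.76 and 5.35. The log2 fold change was 2.17 (SE 0.30, 95% interval 1.47 to 2.86, adjusted p = 0.0223 from limma, 2 arrays per strain). The wild-type signals exceeded the filter level of 33.6 but not 69.0, the 25th percentile over the probe sets that name a single gene. With 69.0 in place of the wild type, *YPS6* was at least 3.05-fold higher in *ccw12*Δ.

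*YPS6* lies on a chromosome whose genes were higher as a whole. The 177 genes tested on chromosome IX had a median log2 ratio of 0.90, 14 of them were called higher, and 2 had a larger value than *YPS6*. With chromosome-centred arrays its log2 fold change was 1.25 (SE 0.30) and did not pass (adjusted p = 0.192 from limma, unadjusted p = 0.00446). Its 7 flanking genes, all of them tested, had a median of 0.91 and a range of 0.47 to 2.02. Of these, 2 passed, and 1 of them reached the filter level only through the *ccw12*Δ arrays. *GTT1*, next to *YPS6* and coding for a glutathione transferase, gave 2501.7 and 2865.8 on the *ccw12*Δ arrays, against 868.1 and 1216.2 on the wild-type arrays (adjusted p = 0.0478 from limma). *YIR042C*, on the telomeric side, had 117.6 and 127.9 on the *ccw12*Δ arrays, against 28.1 and 32.5 on the wild-type arrays, both under 33.6. With 33.6 in place of the wild type it was at least 3.65-fold higher in *ccw12*Δ (adjusted p = 0.0342 from limma, on the signals as measured), and the value of 2.02 at the top of the range is its own. What part of the *YPS6* value goes with the chromosome and what part is its own was not tested beyond the centring. Of 16 alternative settings 12 called *YPS6*, the fits with an array left out among them, which rest on the replicates of 1 strain only. With all 4 arrays kept, its adjusted p-values from limma lay between 0.0032 with the replicate block and 0.192 with chromosome-centred arrays.

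**Figure D3:**
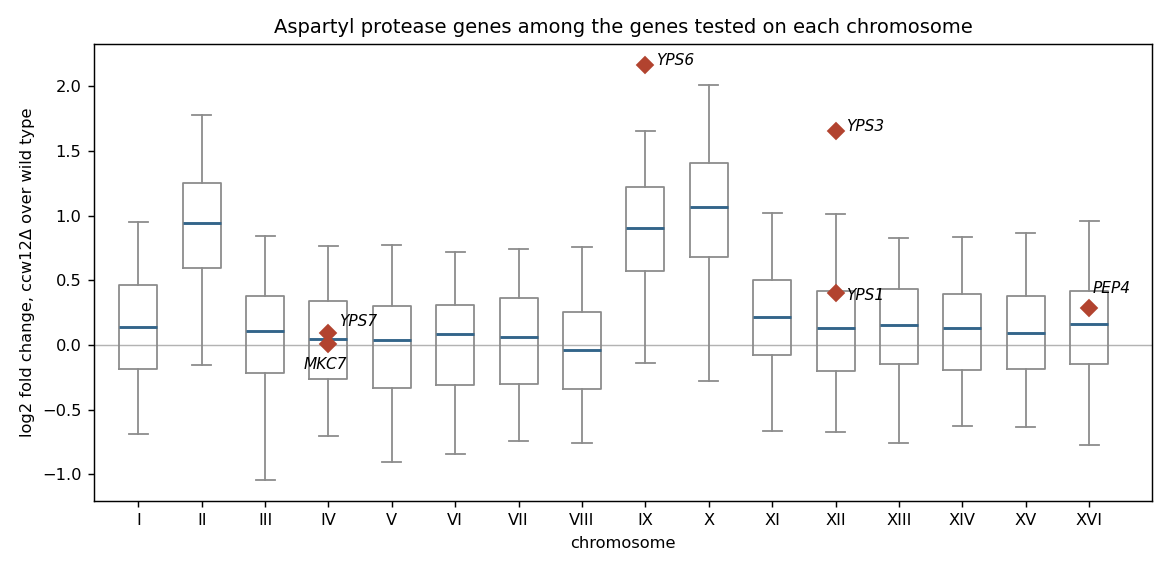
Log2 fold changes of ccw12Δ over wild type for the genes tested on each chromosome (boxes: quartiles and median, whiskers: 5th and 95th percentiles), with the aspartyl protease genes as diamonds. YPS3 stands above the whisker of chromosome XII, with 1.65 against a chromosome median of 0.13, and YPS6 above that of chromosome IX, where the median is 0.90.

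*YPS5* (YGL259W) codes for a protein similar to the GPI-anchored aspartic proteases and lies near the left end of chromosome VII. Its own probe set gave 39.4 and 3.1 on the *ccw12*Δ arrays, against 20.0 and 22.4 on the wild-type arrays. The mutant arrays lay on either side of both wild-type arrays, 3 of the 4 signals were under 33.6, and no fold change is given. Only 0.0587% of the genes tested differed more between the *ccw12*Δ arrays than *YPS5*. Those genes reached the filter level and *YPS5* did not, so that this share does not place it among genes as dim as itself. A second probe set of the array names both *YPS5* and *YPS6*, so that its signal cannot be assigned to either gene. It gave 100.4 and 107.5 on the *ccw12*Δ arrays, against 13 and 34.4 on the wild-type arrays, with ratios between 2.92 and 8.27. Fitted among all 6956 probe sets that reached the filter level, it did not pass (adjusted p = 0.148 from limma). The wild-type mean of 23.7 is under that level, and with 33.6 in place of the lower wild-type signal the probe set was at least 3.05-fold higher in *ccw12*Δ. In that fit from limma neither *YPS6* (adjusted p = 0.112) nor *YPS3* (adjusted p = 0.123) passed. Of the 9 genes next to *YPS5*, 4 were tested and 1 passed. This was *ZRT1*, the gene of a zinc transporter of high affinity, with 361.1 and 306.6 on the *ccw12*Δ arrays, against 1995.7 and 1324.7 on the wild-type arrays (adjusted p = 0.0223 from limma).

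*MKC7* (YDR144C), which like *YPS1* can suppress the loss of Kex2p when present in extra copies, gave 1395.7 and 1200.7 on the *ccw12*Δ arrays, against 1220.1 and 1356.5 on the wild-type arrays. The strains overlapped on every side. The log2 fold change was 0.0090, with a 95% interval of -0.61 to 0.62 (adjusted p = 0.989 from limma). *YPS7* (YDR349C), a putative GPI-anchored aspartic protease on the same chromosome IV, had 499.1 and 581.8 on the *ccw12*Δ arrays, against 527.4 and 483.3 on the wild-type arrays. Its log2 fold change was 0.094, with a 95% interval of -0.55 to 0.73 (adjusted p = 0.877 from limma). Both intervals leave room for changes in either direction. The sign of both values also turned with the scaling of the arrays. When each array was centred on its median, *MKC7* had -0.30 and *YPS7* had -0.22 on the log2 scale.

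*BAR1* (YIL015W), which in MATα cells is repressed together with the other a-specific genes, gave 40.3 and 36.2 on the *ccw12*Δ arrays, against 1.7 and 1.2 on the wild-type arrays. The arrays of the strains did not overlap. Both mutant signals lay just above the filter level and both wild-type signals far under it. With 33.6 in place of the wild type *BAR1* was at least 1.14-fold higher in *ccw12*Δ, and at a level of 69.0 all 4 signals count as dim. Without the filter *BAR1* entered the test and passed (adjusted p = 0.0468 from limma), but against wild-type signals far under 33.6. No fold beyond this bound is therefore given. *HIS3*, *TRP1* and *SUC2*, which carry deletion alleles in both strains, give an example of the signal of a transcript that should be missing. Over their 6 probe sets signals were between 0.4 and 12.5 on the *ccw12*Δ arrays and between 0.6 and 6.2 on the wild-type arrays. These 3 genes were chosen for this purpose after their values were seen, and they do not set a floor for other probe sets. Of the other a-specific genes too dim to be tested, *STE2*, *STE6* and *AGA2* had signals between 14.6 and 33.0 on the wild-type arrays. *ASG7* had 2.2 and 1.5 there.

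*BAR1* lies on chromosome IX as well. The 8 tested genes next to it had a median log2 fold change of 1.00, between -0.65 and 1.45. None of them passed, and 4 of them met the fold rule upwards, beside 10.4% of all genes tested. Of the other a-specific genes, *MFA1* and *MFA2*, which code for a-factor, were bright enough to be tested and neither passed (adjusted p = 0.973 and 0.707 from limma). *STE2* gave 30.4 and 40.0 on the *ccw12*Δ arrays, against 15.9 and 18.6 on the wild-type arrays. *AGA2*, coding for the adhesion subunit of a-agglutinin, had 26.1 and 22.6 on the *ccw12*Δ arrays, against 19.2 and 14.6 on the wild-type arrays. *STE6*, the a-factor exporter gene, had 25.6 and 30.2 on the *ccw12*Δ arrays, against 21.8 and 33.0 on the wild-type arrays, and *ASG7* did not exceed 2.5 on any array.

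*PEP4* (YPL154C), on chromosome XVI, gave 5928.1 and 6918.4 on the *ccw12*Δ arrays, against 5434.7 and 5062.2 on the wild-type arrays. Both mutant signals exceeded both wild-type signals, which was also the case for *YPS3* and *YPS6*, for *BAR1*, which was too dim to be tested, and for 37.7% of all genes tested. No aspartyl protease gene had both mutant signals below both wild-type signals, as 14.8% of all genes tested had. The log2 fold change of *PEP4* was 0.29 (SE 0.21, 95% interval -0.19 to 0.77) and did not pass (adjusted p = 0.475 from limma). With arrays centred on their medians it was -0.022. *PAI3*, coding for the inhibitor of proteinase A, had 51.0 and 60.5 on the *ccw12*Δ arrays, against 43.5 and 55.5 on the wild-type arrays, and did not pass either (adjusted p = 0.814 from limma).

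Genes that act beside these proteases were taken as 7 lists, with 44 of 45 genes bright enough to be tested. Of the 44 genes 3 were higher, 1 was lower and 40 did not pass, beside 2.7% higher and 0.313% lower over all genes tested. Their median log2 fold change was 0.32, beside 0.19 over all genes tested. None of 7 proteases of the Kex2p, Ste13p and a-factor processing pathways passed, and their values lay between -0.69 and 0.57 on the log2 scale. *KEX2* itself, coding for the main pro-α-factor protease of the Golgi, had 654.7 and 543.7 on the *ccw12*Δ arrays, against 427.5 and 646.5 on the wild-type arrays. None of 8 vacuolar proteases passed either, with a median of 0.43. The vacuolar list has 4 genes on chromosomes II and X, which include the 3 highest values. One of them, *CPS1*, coding for a carboxypeptidase, had 396.1 and 631.3 on the *ccw12*Δ arrays, against 277.5 and 164.7 on the wild-type arrays, a log2 fold change of 1.23 (adjusted p = 0.109 from limma) that became 0.16 with chromosome-centred arrays. *PRB1* and *PRC1*, coding for proteinase B and carboxypeptidase Y, both activated through Pep4p, had 0.52 and 0.17 on the log2 scale. The 3 inhibitor genes *PAI3*, *PBI2* and *TFS1* had values between 0.18 and 0.93, and none passed.

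Of 5 genes whose products are reported yapsin substrates, *MF(ALPHA)2* was lower and 4 did not pass. This minor gene for pro-α-factor gave 2791.2 and 3546.9 on the *ccw12*Δ arrays, against 9246.5 and 8124.2 on the wild-type arrays. Its log2 fold change was -1.46 (SE 0.22, adjusted p = 0.0323 from limma), and the strains did not overlap. With chromosome-centred arrays it was -1.52 (adjusted p = 0.0507 from limma). The major gene *MF(ALPHA)1* had 9040.1 and 9340.0 on the *ccw12*Δ arrays, against 10432 and 11687 on the wild-type arrays, with a log2 fold change of -0.26 (adjusted p = 0.444 from limma). *GAS1*, coding for a GPI-anchored glucan-remodelling enzyme, had a log2 fold change of 0.11, and *MSB2*, coding for a signalling mucin, had 0.44. *UTR2*, coding for a chitin-glucan crosslinking enzyme, had -0.84, with wild-type signals as far apart as 8000.2 and 4175.1. None of the 5 genes of the GPI transamidase that attaches the anchor passed, and all of them lay between -0.36 and 0.26.

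In the cell wall integrity pathway, whose MAP kinase Slt2p acts through the transcription factors Rlm1p and Swi4p, 1 of 7 kinases and factors tested was higher and 6 did not pass. The exception, *BCK1*, coding for the MAP kinase kinase kinase, had 479.0 and 474.0 on the *ccw12*Δ arrays, against 153.3 and 148.0 on the wild-type arrays (log2 fold change 1.66, adjusted p = 0.0325 from limma). It lies on chromosome X and had 0.59 with chromosome-centred arrays (adjusted p = 0.415). *SLT2* had 727.3 and 677.0 on the *ccw12*Δ arrays, against 359.4 and 399.3 on the wild-type arrays, a log2 fold change of 0.89 that did not pass (adjusted p = 0.113 from limma). Of 9 reported Rlm1p targets 2 were higher, 7 did not pass, and the median was 0.71. *NCW2* (*YLR194C*), a GPI-anchored cell wall protein gene, had 1523.4 and 1371.1 on the *ccw12*Δ arrays, against 402.6 and 495.6 on the wild-type arrays (log2 fold change 1.69, adjusted p = 0.0358 from limma, and 1.57 with chromosome-centred arrays, adjusted p = 0.0598). *PRM5* on chromosome IX had 1157.0 and 1205.1 on the *ccw12*Δ arrays, against 405.1 and 395.0 on the wild-type arrays (log2 fold change 1.56, adjusted p = 0.0383 from limma, and 0.65 with chromosome-centred arrays, adjusted p = 0.392). *KDX1* (*YKL161C*), coding for a kinase-like protein, and *PIR3*, coding for a covalently bound wall protein, did not pass (adjusted p = 0.0514 and 0.0565 from limma). *KDX1* had 83.1 and 87.3 on the *ccw12*Δ arrays, against 14.8 and 28.4 on the wild-type arrays, which lie under 33.6, and was at least 2.53-fold higher in *ccw12*Δ with that level in place of the wild type. *PIR3* had a log2 fold change of 1.61. With chromosome-centred arrays no gene of the 7 lists passed, and neither did any aspartyl protease gene.

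**Figure D4:**
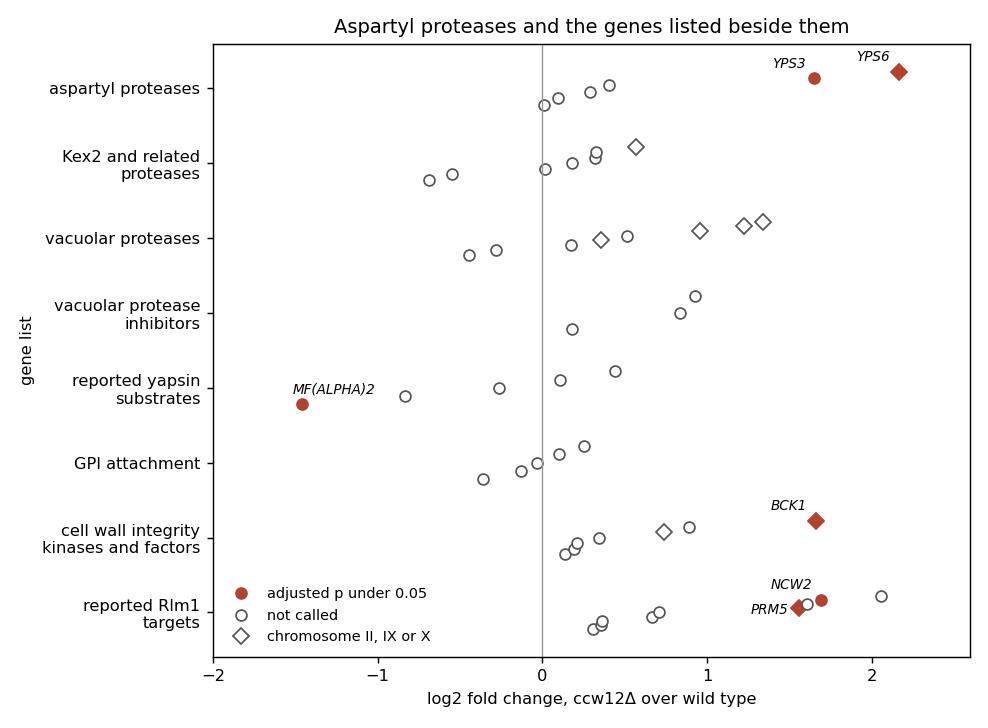
Log2 fold changes of ccw12Δ over wild type for the aspartyl protease genes tested and for 7 lists of genes that act beside them, each point a gene, filled where the adjusted p from limma is under 0.05 and drawn as a diamond for chromosomes II, IX and X. YPS3 and YPS6 stand at 1.65 and 2.17, and the filled points of the other lists are MF(ALPHA)2 at -1.46, BCK1 at 1.66, PRM5 at 1.56 and NCW2 at 1.69. The open point at 2.05 is KDX1, whose wild-type signals were under 33.6.

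Over the 4 arrays, the genes whose log2 signals ran closest to those of a protease gene were found by the root mean square distance of the deviations from each gene's mean. Closest to *YPS3* were *NCW2* (distance 0.041), the zinc-responsive activator gene *ZAP1* (0.046) and the nucleoporin gene *NUP85* (0.051). Closest to *YPS6* were *PRX1*, coding for a mitochondrial peroxiredoxin (0.035), the cyclin gene *PCL1* (0.078) and *MDV1*, coding for a factor of mitochondrial fission (0.082). *YPS1* ran closest to *RRI2*, *MSN2* and *SFP1*, at distances between 0.037 and 0.052. The genes nearest to *MKC7* (*SIS2*, *PMP1*, *KIN4*), *YPS7* (*IGO2*, *CIN8*, *GDS1*) and *PEP4* (*CWC15*, *SHE10*, *BNA1*) were within 0.029 and did not pass the test. The distances were taken on the signals as deposited. *ZAP1*, *NUP85*, *MDV1* and *BNA1* lie on chromosome X and *PRX1* on chromosome II, both with genes that were higher as a whole. With 4 arrays these distances are a description only.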

How the data were processed

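The data are 4 Affymetrix YG-S98 arrays of a single colour, with 2 arrays for each strain. The authors converted the scans with GCOS (MAS5 in the submitters' processing notes, no version) and deposited 1 linear intensity per probe set and array, scaled per array to a target not given in the sources used here. Such signals are not counts, and the number of arrays limits the precision.

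Of 9335 probe sets, 60 are controls, 6504 name 1 gene, 328 several and 2443 none in the platform annotation. The 5656 genes were all matched by gene ID to the RefSeq table of the R64 assembly, used for names, chromosomes and gene order, with no coordinates. Before log2, 19 signals of zero were raised to 0.1. The 5114 genes at or above the filter level were fitted with limma 3.58.1 in R 4.3.3 (lmFit, eBayes with a trend) over all 4 arrays, with Benjamini-Hochberg adjustment at 0.05. The Present and Increase or Decrease calls of the study's selection were not used here. The 2 arrays of a strain are separate pools of RNA, and p-values rest on their spread. Members, lists, tests and alternatives were chosen with earlier results of these data known. All 8 members are named, and from the lists those with the largest changes among the genes that passed; other list genes were named for their role, with their values seen. Protein and promoter sequences were not analysed here. The calculation was tested on simulated data. Python 3.11.15 with matplotlib 3.10.9 made the plots.

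Alternatives were quantile normalization, arrays centred on medians, on the genes not on chromosomes II, IX and X or by chromosome, the filter dropped or moved to the 50th percentile, 7.2 (the 10th percentile of signals) added before log2, probe sets averaged per gene, eBayes with no trend, a block for the replicate number, and each array left out. A filter at 69.0, a fit of all probe sets and the crossed block were added after seeing the data.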

Additional observations from a re-analysis of the deposited data

Results flagged for a closer look

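The probe set that names both *YPS5* and *YPS6* stood for no gene in the fit over genes, because its signal belongs to no single gene. Its mean signal was 104 in *ccw12*Δ, above the mean of 23.7 in the wild type, and it was noted for that reason. With 2 arrays per strain, single signals were not tested for their gap to the others of the strain.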

How the results depend on the processing

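*YPS3* and *YPS6* kept a positive log2 fold change in every alternative setting, between 1.34 and 1.75 for *YPS3* and between 1.25 and 2.33 for *YPS6*, but their calls from limma depended on the setting. In place of 2 called genes, 0 were called after centring on medians, 0 after quantile normalization, 0 with chromosome-centred arrays, 0 in the fit of all probe sets, 1 (*YPS6*) with arrays centred on genes outside chromosomes II, IX and X and 1 (*YPS3*) with the filter at the 50th percentile, where *YPS6* was not tested. With an array left out between 1 and 3 were called. Such fits rest on the replicates of 1 strain only (over genes, their log2 differences had an SD of 0.473 in *ccw12*Δ and 0.645 in the wild type). *YPS3* did not pass without *ccw12*Δ replicate 1 or 2, and *YPS1* passed without wild type replicate 2. Without the filter *YPS6* and, against wild-type signals under 33.6, *BAR1* were called, and *YPS3* was not (adjusted p = 0.0511 from limma). The fold rule gave 1 gene with the filter at the 50th percentile and 2 or 3 elsewhere.

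Signs turned for genes that did not pass. *MKC7* had log2 fold changes of -0.090 after quantile normalization, -0.30 with centring on medians, -0.096 with centring on genes outside chromosomes II, IX and X and -0.054 with chromosome-centred arrays, and *YPS7* had -0.13, -0.22 and -0.011 in the first 3 of these settings. *PEP4* had -0.022 with centring on medians. With an array left out the values lay between -0.083 and 0.89 for *YPS1*, between -0.0996 and 0.118 for *MKC7* and between -0.017 and 0.205 for *YPS7*.

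With the replicate block 2 genes were called, *YPS3* and *YPS6*, and so they were with the numbers crossed. Same-numbered arrays did not deviate together (r = -0.13 across genes), so that the numbers were not taken as pairs. Over all genes 154 were called (138 higher, 16 lower), 372 with the replicate block and 400 with the crossed one. The count was 31 after centring on medians (19 and 12), 10 after quantile normalization (7 and 3), 37 with centring on genes outside chromosomes II, IX and X (29 and 8), 19 with chromosome-centred arrays (8 and 11), 39 without the filter, 242 and 267 with the stricter filters, 90 without the trend, 1 (a lower gene) in the fit of all probe sets and, with an array left out, 137 and 38 without *ccw12*Δ replicate 1 and 2 and 765 and 1487 without wild type replicate 1 and 2. The median log2 fold change of all genes tested was 0.19 as deposited, -0.12 with centring on medians, -0.050 after quantile normalization, 0.084 with centring on genes outside chromosomes II, IX and X and 0.0013 with chromosome-centred arrays. Signals near 33.6 limit *YPS5* and *BAR1*, for which no detection calls were used.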

Other observations

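The genes that MATα cells express in place of *BAR1* and its a-specific relatives were bright on all arrays. *SAG1*, coding for α-agglutinin, gave 6095.9 and 5007.4 on the *ccw12*Δ arrays, against 11300 and 8718.1 on the wild-type arrays, a log2 fold change of -0.85 (SE 0.22) that did not pass (adjusted p = 0.0781 from limma). It lies on chromosome X, and with chromosome-centred arrays its value was -1.92 and passed (adjusted p = 0.0430 from limma). *STE3* had 1431.5 and 1331.2 on the *ccw12*Δ arrays, against 1840.0 and 2985.4 on the wild-type arrays, with a log2 fold change of -0.76 (SE 0.30, adjusted p = 0.208 from limma). Of the 4 α-specific genes, *MF(ALPHA)2* passed and 3 did not, beside 0.313% called lower over all genes tested. All 4 had values below 0, whereas 3315 of the 5114 genes tested had values above 0.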
